A study of Cavia porcellus with 10 samples.

Results

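Lysyl oxidases are the secreted enzymes that cross-link collagen and elastin, and the 8 genes described here are the 5 members of that family together with 3 genes that carry copper to them: LOX, LOXL1, LOXL2, LOXL3, LOXL4, ATP7A, ATOX1 and SLC31A1. They were found by symbol, ignoring case, among 17642 lines with a symbol in a table of read counts from guinea pig sclera, the tough collagenous shell around the eye. Where a symbol has several lines, the line was to be selected on its mean count, but each of the 8 symbols stood on 1 line. All 8 passed the filter on low counts and were among the 14683 genes tested. The genes were chosen by function, with the measured differences between myopia and control, those of LOX and LOXL1 among them, already known. The counts of genes that differ are therefore a description of this group and not independent evidence.

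The animals were male guinea pigs (Cavia porcellus) aged 2 to 3 weeks. In the myopia group lenses that make the eye nearsighted were worn on both eyes, and the control group was left untreated. Each group had 5 libraries of scleral tissue, 1 per eye. No strain, lens power or length of lens wear is given in the sources used here, nor which eyes came from the same animal, so the p-values rest on the spread between eyes and may be too small for a statement about animals. The design implies 1 comparison, myopic against untreated sclera.

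Lysyl oxidases convert lysine and hydroxylysine side chains of collagen and elastin to reactive aldehydes, which then join neighbouring chains covalently. Each enzyme needs a copper ion in its active site. Copper enters the cell through the transporter SLC31A1 (also called CTR1), the small cytosolic chaperone ATOX1 hands it to the pump ATP7A, and ATP7A moves it into the Golgi, where secreted enzymes are loaded with it. Cross-links give the sclera its tensile strength, which is why this enzyme family is studied in eyes that elongate.

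The libraries held between 32309258 and 35430797 counted reads. The scaling factors (TMM, a trimmed mean of gene-wise ratios) lay between 0.777 and 0.968 for control and between 1.11 and 1.25 for myopia, and the number of symbols with at least 1 read was 15706 to 15982 in control and 15970 to 16144 in myopia. In control both rose in order from library 1 to library 5, so control 5 had the highest control value of both. For 53.8% of all genes tested control 5 was the control library nearest to the myopia mean, and for 18.4% it was control 4. Values without control 4 and 5 are therefore given beside the genes for which these libraries stood apart. Where they lie nearest to myopia, leaving them out enlarges the difference by construction. Such larger values describe how far a result depends on these 2 libraries and are not further evidence for it. Fibroblast markers were present: none of the 9 listed was at 0, and their summed level was 126285 to 161322 CPM (the usual unit of counts relative to the library's total, here TMM-scaled) in control and 70564 to 97407 CPM in myopia. Of these markers 3 were higher (DCN, PDGFRA and KERA, named after their values were seen) and 4 lower, and the sum is dominated by COL1A1, which went from 82710 to 35547 CPM. Higher and lower are calls of the edgeR test used below, which 36.9% and 35.1% of all genes tested received. In this bulk tissue, fewer cells of a type and less RNA per cell cannot be told apart. Of the markers of other tissues, those of red blood cells fell in 4 of 4 cases, from a summed 2503 to 10558 CPM in control to 100 to 456 CPM in myopia. Macrophage markers were lower in 4 of 7 cases and higher in 1 (330 to 406 CPM against 176 to 263 CPM), and photoreceptor markers were lower in 3 of 4 (173 to 315 CPM against 29.3 to 183 CPM). Summed endothelial markers lay at 960 to 1173 CPM in control and 782 to 1184 CPM in myopia, with 3 of 7 higher and 1 lower. Smooth muscle and pericyte markers (978 to 1560 and 1172 to 1758 CPM, 2 of 6 higher and 2 lower), skeletal muscle markers (2458 to 7290 and 2145 to 4948 CPM, 1 of 9 higher and 4 lower) and pigment cell markers (146 to 430 and 48.3 to 221 CPM, 2 of 8 higher and 3 lower) overlapped between the groups. Without control 4 and 5 the number of lower markers was 0 for photoreceptors and 0 for skeletal muscle, and with total-count scaling it was 1 and 0. No marker found in the table was at 0 in all libraries, and the part of these tissues in the results below was not tested.

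Within this small group the direction of change was split. LOX, the copper pump ATP7A and the copper importer SLC31A1 rose in the myopic sclera. LOXL1, LOXL2 and the chaperone ATOX1 fell on the TMM scale, LOXL2 only slightly and not with every scaling. LOXL3 and LOXL4 did not pass the test. In edgeR's quasi-likelihood test with Benjamini-Hochberg adjustment over all genes, 3 of the 8 rose and 3 fell at an adjusted p of 0.05. Among all genes tested 71.9% passed this threshold, 36.9% as higher and 35.1% as lower, so these counts are close to the background. The median log2 fold change was -0.23 over the 8 genes and 0.03 over all genes. With libraries scaled by total count alone the median of all genes moved to 0.47 and that of the 8 genes to 0.22, so directions here hold for TMM scaling unless stated otherwise. The groups did not overlap for 5 of the 8 genes (57.8% of all genes tested). Without control 4 and 5, again 3 of the 8 rose and 3 fell.

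**Figure D1:**
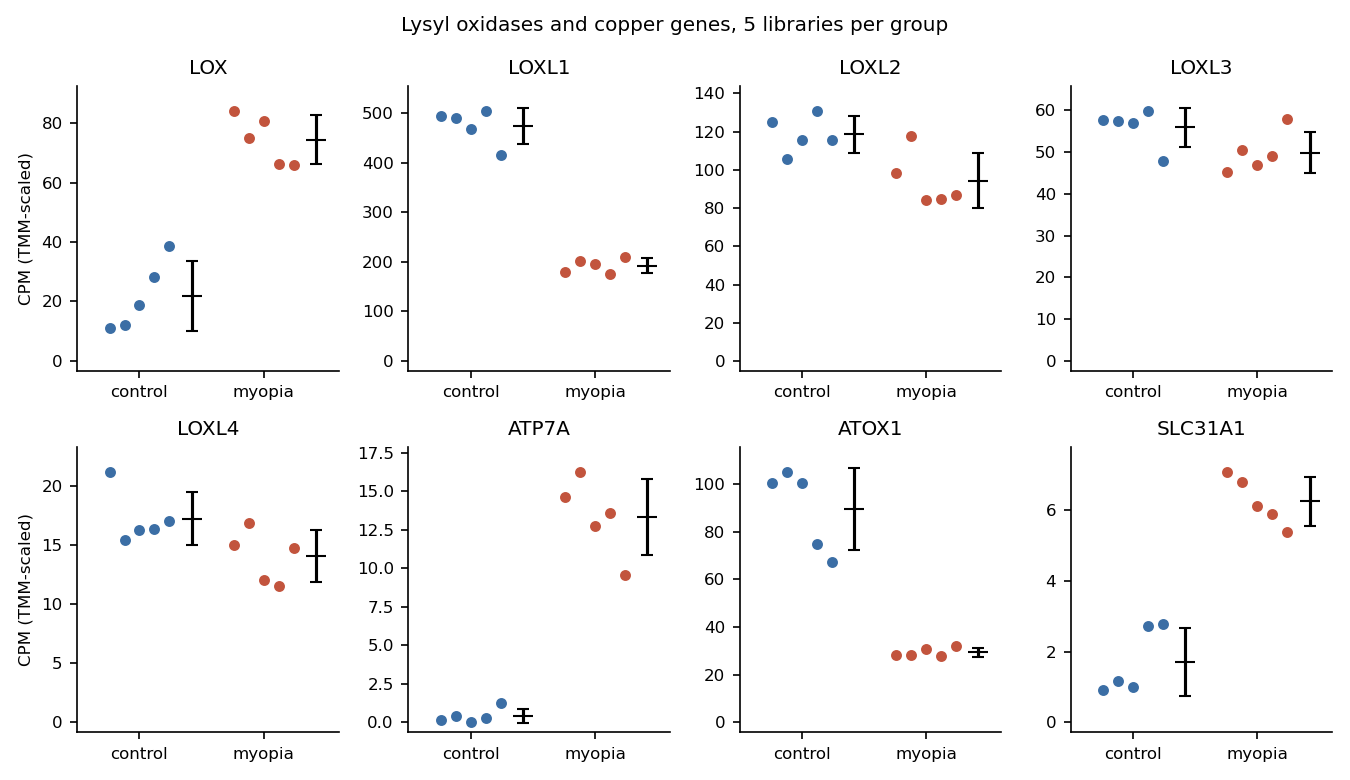
Level of each of the 8 genes in every library, in TMM-scaled CPM on a linear axis with its own range per panel. Points are libraries 1 to 5 from left to right, control in blue and myopia in red, and the black bar is the mean with its SD (n = 5 per group). The groups are apart for LOX, LOXL1, ATP7A, ATOX1 and SLC31A1 and overlap for LOXL2, LOXL3 and LOXL4.

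LOX is the founding enzyme of the family, made as a proenzyme and acting on both fibrillar collagen and elastin. Its level in control libraries 1 to 5 was 11.2, 12.2, 18.8, 28.2 and 38.8 CPM. In myopia libraries 1 to 5 it was 84.1, 75.1, 80.6, 66.1 and 65.9 CPM. The myopia libraries lay close together and all above the control libraries, whose own highest value was 3.48 times their lowest. The lowest myopia library exceeded the highest control library by a factor of 1.70, less than the spread among the untreated eyes. The log2 fold change was 1.77 ± 0.30 (SE; adjusted p = 0.000174 in edgeR's quasi-likelihood test), a 3.40-fold rise. Control 4 and 5 were the highest control libraries. Without both of them the log2 fold change was 2.42 (adjusted p = 1.74e-07 in the same test), larger by construction because the nearest control libraries were removed.

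LOXL1, the paralogue best known for its part in elastic fibres, moved the other way. It stood at 495, 490, 468, 504 and 415 CPM in control libraries 1 to 5 and at 179, 202, 196, 175 and 211 CPM in myopia libraries 1 to 5. Both groups were tight: the highest library was 1.22 times the lowest in control and 1.20 times in myopia. The groups were separated by a factor of 1.97 between the lowest control and the highest myopia library, so here the gap exceeded the spread in either group. The log2 fold change was -1.30 ± 0.09 (SE; adjusted p = 2.53e-07 in edgeR's quasi-likelihood test). It was -1.32 without control 4 and 5, and -0.85 with scaling by total count.

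LOXL2, LOXL3 and LOXL4 differ from the other pair by the scavenger receptor domains at their amino-terminal ends. LOXL2, which also cross-links the collagen IV network of basement membranes, stood at 125, 106, 116, 131 and 116 CPM in control libraries 1 to 5. In myopia it stood at 98.6, 118, 84.0, 84.7 and 86.6 CPM. Of the 5 myopia libraries, myopia 2 lay inside the control range and the others below it. The log2 fold change of -0.33 ± 0.11 (SE) passed the edgeR test (adjusted p = 0.013), but with scaling by total count LOXL2 turned to 0.11 and did not pass (adjusted p = 0.356).

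LOXL3, a gene that has been linked to early-onset high myopia in people, ranged from 47.7 to 59.8 CPM in control (median 57.4) and from 45.2 to 57.9 CPM in myopia (median 48.9). The groups overlapped at both ends, with control 5 among the myopia libraries and myopia 5 among the control libraries. The log2 fold change was -0.16 ± 0.09 (SE; adjusted p = 0.124 in the edgeR test). It passed without control 5 (-0.20, adjusted p = 0.042) and without myopia 5 (-0.22, adjusted p = 0.045). With scaling by total count it became 0.29 (adjusted p = 0.0122), in the other direction. LOXL4, the remaining member with such domains, ranged from 15.4 to 21.1 CPM in control (median 16.3) and from 11.6 to 16.8 CPM in myopia (median 14.7). Its log2 fold change was -0.29 ± 0.13 (SE; adjusted p = 0.0605 in the edgeR test). It passed without myopia 2 (-0.37, adjusted p = 0.028) and turned to 0.15 with scaling by total count. Neither gene has a direction that holds across these settings.

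On the copper route that feeds these enzymes lay the widest difference of the 8 genes, that of ATP7A. ATP7A, the pump that loads copper onto enzymes in the Golgi, was counted with only 4, 11, 1, 8 and 39 reads in control libraries 1 to 5, against 564, 576, 496, 554 and 364 reads in myopia libraries 1 to 5. On the TMM scale these were 0.158, 0.388, 0.0341, 0.262 and 1.25 CPM in control and 14.7, 16.2, 12.7, 13.6 and 9.58 CPM in myopia. ATP7A was thus barely detected in the untreated sclera and moderately detected in every myopic one, with 7.65-fold between the highest control and the lowest myopia library. The mean rose from 0.419 ± 0.484 to 13.4 ± 2.48 CPM (SD, n = 5 each), a ratio of 31.9. The fitted log2 fold change was 4.95 ± 0.52 (SE; adjusted p = 4.35e-06 in edgeR's quasi-likelihood test). Control 5 alone carried most of the control reads, and without it the log2 fold change was 5.97 (adjusted p = 1.61e-08). Without control 4 and 5 it was 6.10. With all libraries it was 5.61 with limma-voom and 6.18 with limma-voom and sample quality weights, and the cause of these larger values was not tested.

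ATP7A had the 19th highest log2 fold change of the 14683 genes tested. A mean under 1 CPM in control together with a mean over 10 CPM in myopia, limits set after the value of ATP7A was seen, held for 27 genes. The reverse, over 10 CPM in control and under 1 CPM in myopia, held for 0 genes. Since the limits were set around it, ATP7A is among the 27 by construction.

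SLC31A1, the copper importer of the plasma membrane, was also low in control. Its counts were 23, 33, 29, 83 and 87 reads in control libraries 1 to 5 and 272, 241, 238, 241 and 204 reads in myopia. This corresponded to 0.907, 1.16, 0.99, 2.72 and 2.79 CPM in control and to 7.07, 6.79, 6.11, 5.90 and 5.37 CPM in myopia. The control libraries fell into a lower set (1 to 3) and a higher pair (4 and 5), and all lay below the myopia libraries, by a factor of 1.92 at the nearest. The log2 fold change was 1.85 ± 0.32 (SE; adjusted p = 0.000143 in the edgeR test), and 2.62 without control 4 and 5.

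ATOX1, the chaperone between importer and pump, fell while both of its neighbours on the route rose. It stood at 100.3, 105, 100.5, 74.8 and 67.3 CPM in control libraries 1 to 5 and at 28.1, 28.1, 30.7, 27.7 and 32.1 CPM in myopia. The myopia values were nearly uniform (the highest 1.16 times the lowest), while control 4 and 5 lay below the other control libraries. The gap between the lowest control and the highest myopia library was 2.10-fold. The log2 fold change was -1.61 ± 0.13 (SE; adjusted p = 4.05e-07 in the edgeR test), -1.78 without control 4 and 5, and -1.14 with scaling by total count.

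**Figure D2:**
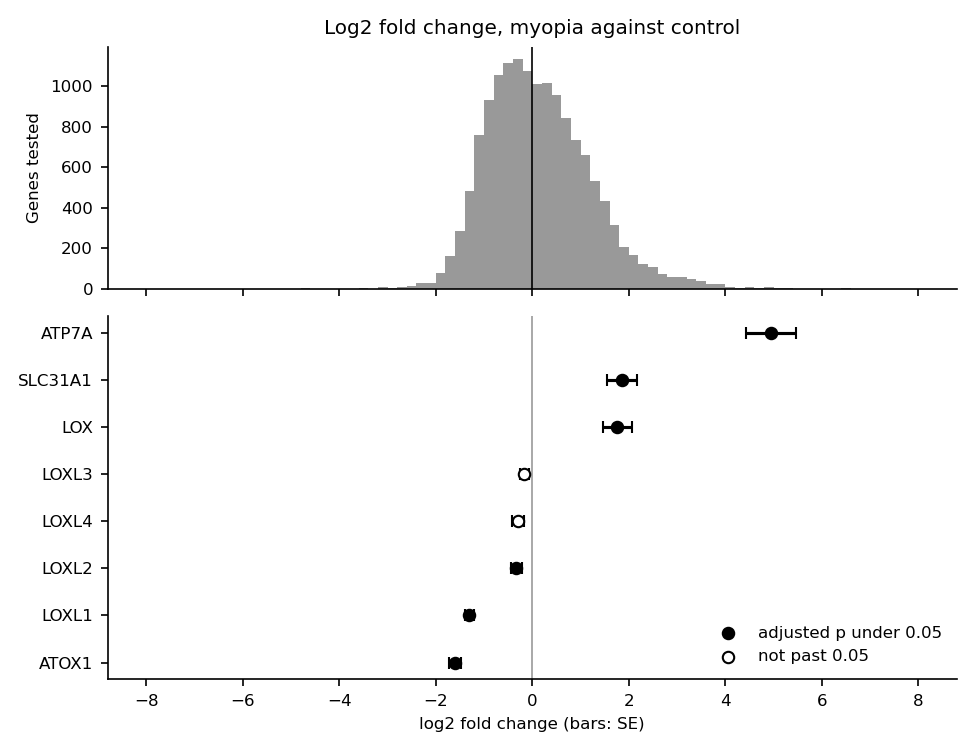
Log2 fold change of the 8 genes with its SE (lower panel) under the distribution of all 14683 genes tested (upper panel), on one axis. ATP7A at 4.95 lies in the far upper tail, LOX and SLC31A1 at 1.77 and 1.85 on the upper shoulder, and LOXL1 and ATOX1 at -1.30 and -1.61 on the lower shoulder, while the open points (LOXL3, LOXL4) lie near the centre.

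The genes that rose were also those that varied most among the untreated eyes. The SD of log2 CPM across the 5 control libraries was 0.77 for LOX, 0.77 for SLC31A1 and 1.40 for ATP7A, against a median of 0.26 over all genes tested. These values exceeded those of 92.2%, 92.3% and 99.2% of the genes tested, and for ATP7A the few reads per control library add counting noise to them. For LOXL1, LOXL2 and LOXL3 the control SD was 0.11, 0.12 and 0.13, lower than for most genes, and for ATOX1 it was 0.29. In myopia the SD of LOX and SLC31A1 was 0.16 for each, below the median of 0.18, and that of ATP7A was 0.29, above it. Over all genes tested the control SD was above the myopia SD for 65.8%. LOX rose in order from control 1 to control 5, as the TMM factors did, and a link between them was not tested. Control 5 was the control library nearest to the myopia mean for 6 of the 8 genes (ATOX1, ATP7A, LOX, LOXL1, LOXL3 and SLC31A1) and control 2 for LOXL2 and LOXL4. Control 5 held this place for 53.8% of all genes tested, so it is not particular to these genes.

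Ratios between a pair of these genes within a library do not depend on how libraries are scaled to one another. Gene lengths are not known here, so only the difference of a ratio between libraries is read, not its level. A difference between the groups in RNA quality or in coverage along transcripts would not cancel in such a ratio. Whether there was such a difference was not tested. The log2 ratio of LOX to LOXL1 was -5.47, -5.33, -4.64, -4.16 and -3.42 in control libraries 1 to 5 and ranged from -1.68 to -1.09 in myopia. The groups were far apart, with a mean difference of 3.23 on the log2 scale, and leaving out any single library kept it between 3.01 and 3.53. For LOX to LOXL2 the ratio ranged from -3.49 to -1.58 in control and from -0.65 to -0.06 in myopia, a mean difference of 2.27. The balance of counts within the family therefore shifted towards LOX whatever the scaling between libraries.

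On the copper route the same held for importer and pump against the chaperone. The log2 ratio of SLC31A1 to ATOX1 ranged from -6.79 to -4.59 in control and from -2.58 to -1.99 in myopia, a mean difference of 3.63. The log2 ratio of ATP7A to ATOX1 ranged from -11.5 to -5.75 in control and from -1.74 to -0.79 in myopia, a mean difference of 7.41. Control 3, with a single ATP7A read, set the lowest value, and without it the difference was 6.67. Without control 5, the highest control library, it was 8.11. In all 4 pairs the control libraries were more spread than the myopia libraries and no library of one group lay within the range of the other. For single genes the control SD was likewise the larger for 65.8% of all genes tested. Each pair sets a gene that rose over a gene that fell, and these directions were known when the genes were chosen. The separation of the ratios therefore largely restates the differences of the single genes and is not further evidence.

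**Figure D3:**
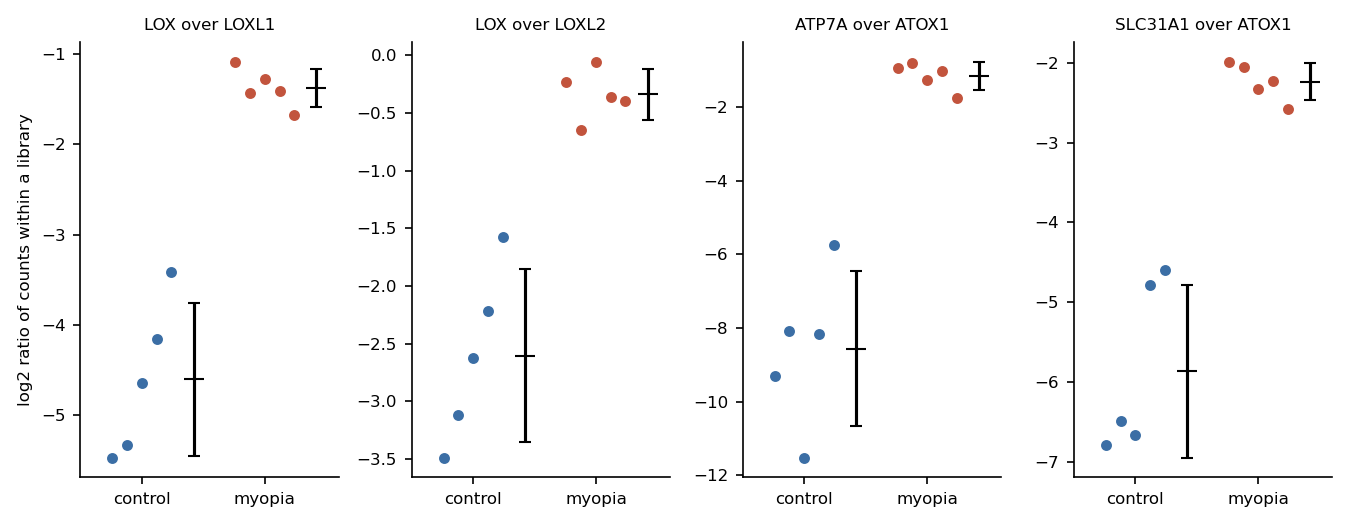
Log2 ratio of the counts of a pair of genes within each library, on a separate axis per pair. Points are libraries 1 to 5 of control (blue) and myopia (red), and the black bars are mean and SD (n = 5). All 5 myopia libraries lie above all 5 control libraries in each pair, and the control libraries are the more spread.

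Summed over the 5 genes, lysyl oxidase transcripts were lower in myopia, at 634 to 740 CPM in control and 386 to 462 CPM in myopia, a log2 ratio of group means of -0.69. With scaling by total count the ratio was -0.25 and the groups stayed apart (552 to 654 CPM and 484 to 512 CPM). LOXL1 contributed the most reads to this sum in every library and held 65.4% to 72.0% of the family's counts in control and 42.4% to 48.3% in myopia. LOX held 1.57%, 1.79%, 2.78%, 3.82% and 6.12% in control libraries 1 to 5, whereas in myopia it held 15.1% to 19.9%. LOXL2 went from a median of 17.6% to 21.9%, LOXL3 from 8.10% to 11.2% and LOXL4 from 2.40% to 3.38%. Shares of counts favour long transcripts and are compared here only between libraries, with the limit on RNA quality and coverage given above. A larger share of LOXL2, LOXL3 and LOXL4 beside a falling LOXL1 says nothing of a rise in their own level.

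**Figure D4:**
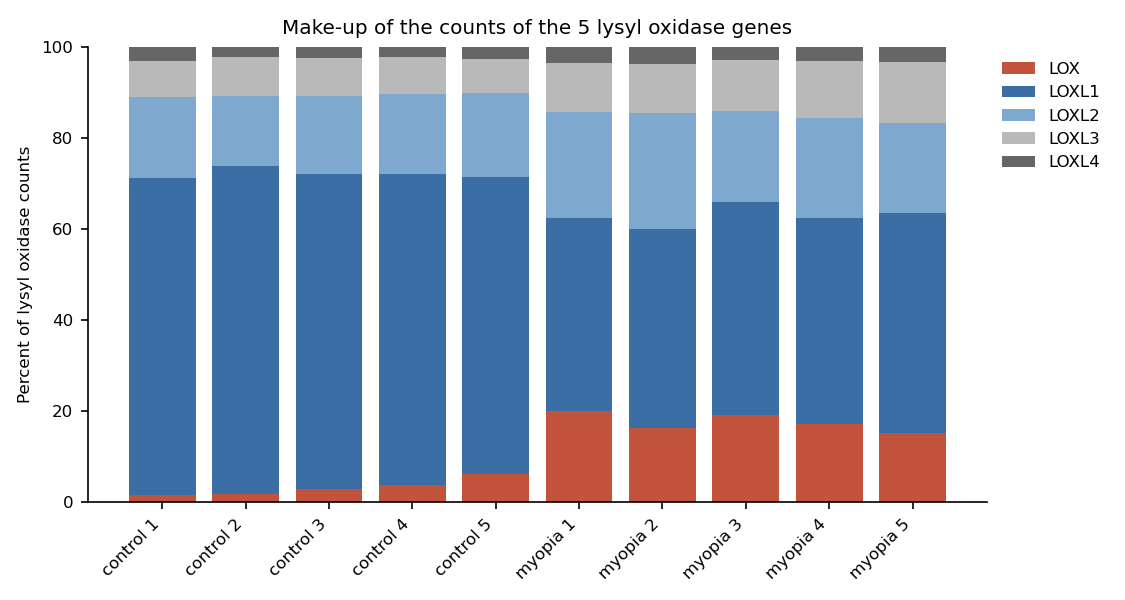
Percent of the summed counts of the 5 lysyl oxidase genes held by each gene, as stacked bars per library from 0 to 100. The LOX segment is 1.57% to 6.12% in control and 15.1% to 19.9% in myopia, and the LOXL1 segment is correspondingly smaller in the myopia libraries.

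As a measure of likeness, the Pearson correlation of log2 CPM with LOX over the 10 libraries was taken for 9612 other genes with a mean of at least 10 CPM. The highest values were those of GOLIM4 (0.995), KIAA0100 (0.994) and the second line of HNRNPR (0.993). For LOXL1 they were those of SRSF9 (0.996), Surf4 (0.993) and OSBPL5 (0.992). Such values are common here because the points are 10 libraries in 2 groups that differ for most genes: 2087 genes exceeded 0.9 with LOX and 2708 with LOXL1. Over the 5 control libraries alone, 1097 genes exceeded 0.9 with LOX, led by CAPZA1, MGA and HACE1, and 161 with LOXL1, led by Pigx, Npc1l1 and Itga11. More genes thus exceeded 0.9 with LOX than with LOXL1 in these 5 libraries. Only positive correlations were counted. With 5 points some such values arise by chance, and their share was not estimated.

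Of 18 other measured genes of copper handling 7 were higher and 7 lower, shares close to the 36.9% and 35.1% over all genes tested, and the median of their log2 fold changes was 0.22. ATP7B, the second copper-exporting pump, rose like ATP7A. It stood at 0.513, 0.705, 1.33, 2.10 and 3.47 CPM in control libraries 1 to 5 and at 6.34 to 9.53 CPM in myopia, with a log2 fold change of 2.19 ± 0.41 (SE; adjusted p = 0.000316 in the edgeR test). Without control 4 and 5 it was 3.13. The control libraries again differed among themselves, and control 4 and 5 were the highest. CCS, the copper chaperone of superoxide dismutase, and COX17, that of cytochrome c oxidase, fell like ATOX1, with log2 fold changes of -0.997 ± 0.14 and -0.93 ± 0.11 (SE). SLC31A2, a relative of SLC31A1 on internal membranes, did not pass (0.22 ± 0.10, adjusted p = 0.07), but passed as higher without control 4 and 5 (0.33, adjusted p = 0.0146). On the total-count scale 11 genes of this list were higher and 3 lower. The metallothioneins MT1A, MT1E, MT1, MT2 and MT2A were looked for by symbol but had no line, so their levels were not measured. MT3, the metallothionein of the list that had a line, was lower (-0.88 ± 0.21, SE; adjusted p = 0.00229 in the edgeR test). It is named after its value was seen.

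Among other enzymes that carry copper, 5 of 10 measured genes fell and 2 rose (median log2 fold change -0.52), where 35.1% of all genes tested fell and 36.9% rose. SOD3, the extracellular superoxide dismutase, which like the lysyl oxidases is a secreted enzyme supplied by ATP7A, stood at 551, 505, 465, 351 and 332 CPM in control libraries 1 to 5 and at 114 to 150 CPM in myopia. Its log2 fold change was -1.79 ± 0.15 (SE; adjusted p = 5.82e-07 in the edgeR test), and -1.98 without control 4 and 5. The lower control values were again those of control 4 and 5. AOC3, a membrane amine oxidase of smooth muscle and fat cells, fell by 0.94 ± 0.09 on the log2 scale, and AOC1, a secreted amine oxidase, fell by 0.52 ± 0.15. SOD1, the cytosolic superoxide dismutase, fell by 0.52 ± 0.09, a call that was lost with scaling by total count (-0.07, adjusted p = 0.426). Under that scaling the calls of AOC1 (-0.06, adjusted p = 0.72) and of TYR, described below, (-1.15, adjusted p = 0.0509) were lost too. PAM, which amidates peptides, and CP, the copper-carrying ferroxidase ceruloplasmin, rose by 0.62 ± 0.11 and 1.86 ± 0.20. TYR, the copper enzyme of pigment synthesis, also fell (-1.64 ± 0.51). Of the 8 pigment cell markers, which include TYR, PMEL and MLANA also fell, whereas RPE65 and DCT rose (named after their values were seen). The part of pigment cells in the fall of TYR was not tested. AOC1, CP and TYR are named after their values were seen, to account for every call in the list. On the total-count scale 3 genes of this list were higher and 2 lower.

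Genes that process or position lysyl oxidases were lower in 5 of 11 tested cases and higher in 2 (median log2 fold change -0.24). Over all genes tested 35.1% were lower and 36.9% higher. BMP1, the proteinase that removes the propeptide of LOX, went from 333 ± 32.0 to 249 ± 21.3 CPM (SD, n = 5 per group), and its log2 fold change was -0.42 ± 0.10 (SE). FBLN5, a fibulin that tethers LOXL1 to elastic fibres, had a log2 fold change of -0.59 ± 0.10, and FMOD (fibromodulin), a collagen-binding proteoglycan that can bind LOX, of -0.41 ± 0.13. These 3 calls were lost with scaling by total count, where BMP1 and FMOD turned to 0.04 and 0.05 and FBLN5 stood at -0.15. PCOLCE, the enhancer of BMP1, and ADAMTS2, which cleaves procollagen, were the other 2 that fell, by 1.29 ± 0.16 and 1.16 ± 0.12. TLL1, a proteinase related to BMP1, and THBS1 (thrombospondin 1) rose by 1.53 ± 0.24 and 1.36 ± 0.18. PCOLCE, ADAMTS2, TLL1 and THBS1 are named after their values were seen. EFEMP2 (fibulin 4, which binds LOX), FN1 (fibronectin) and POSTN (periostin) did not pass, with log2 fold changes of -0.24 ± 0.11, 0.13 ± 0.17 and 0.34 ± 0.20. On the total-count scale 5 genes of this list were higher and 2 lower, and its median was 0.23. EFEMP2 is 1 of those that then passed as higher (0.23, adjusted p = 0.0308), whereas it passed as lower without control 4 and 5 (-0.34, adjusted p = 0.00299).

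Transcripts of the proteins that lysyl oxidases cross-link mostly fell, as LOXL1 did and LOX did not. Of 9 substrate genes 6 fell and 1 rose (median log2 fold change -0.81), beside 35.1% and 36.9% of all genes tested. The elastin gene ELN ranged from 1175 to 1473 CPM in control and from 459 to 604 CPM in myopia, a log2 fold change of -1.43 ± 0.11 (SE), close to that of LOXL1. COL1A1 and COL3A1, chains of the main fibrillar collagens, fell by 1.22 ± 0.15 and 0.91 ± 0.13. COL1A2, the other chain of collagen I, did not pass (-0.29 ± 0.14, adjusted p = 0.0713 in the edgeR test) and is named after its value was seen. COL5A2, a chain of the collagen that starts fibrils, was the substrate gene that rose, by 0.39 ± 0.12, and is named after its value was seen. On the total-count scale 5 of the 9 fell and 2 rose.

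Lysines are hydroxylated in the endoplasmic reticulum before lysyl oxidases act on them. The list of 8 genes holds enzymes of this step and partners in collagen modification and folding. Of them 7 fell and 1 rose (median log2 fold change -0.997), beside 35.1% and 36.9% of all genes tested. With scaling by total count 7 again fell and 1 rose. The gene that rose was PLOD2, the lysyl hydroxylase that acts on the telopeptides where cross-links form. It stood at 5.09, 4.58, 4.95, 4.46 and 8.96 CPM in control libraries 1 to 5 and at 14.3, 7.44, 10.4, 12.2 and 11.3 CPM in myopia. Control 5 lay above the lowest myopia library, so the groups overlapped. Its log2 fold change was 0.99 ± 0.22 (SE; adjusted p = 0.00133 in the edgeR test). FKBP10, the chaperone that works with PLOD2, fell by 1.12 ± 0.14. Without control 4 and 5 the log2 fold change of PLOD2 was 1.21.

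TGF-beta and hypoxia signalling are known to raise LOX transcription; whether they did so here was not tested. Of 9 listed genes of these pathways 7 rose and 1 fell (median log2 fold change 1.05), where 36.9% of all genes tested rose and 35.1% fell. HIF1A, the oxygen-regulated transcription factor, and the growth factor TGFB2 rose, by 1.25 ± 0.15 and 1.25 ± 0.19 (log2, SE). TGFB1 was the gene that fell, by 1.22 ± 0.10. Among the control libraries the highest value of TGFB2 was 2.10 times the lowest, and without control 4 and 5 its log2 fold change was 1.68. The groups did not overlap for any of these 3 genes, as for 57.8% of all genes tested.

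**Figure D5:**
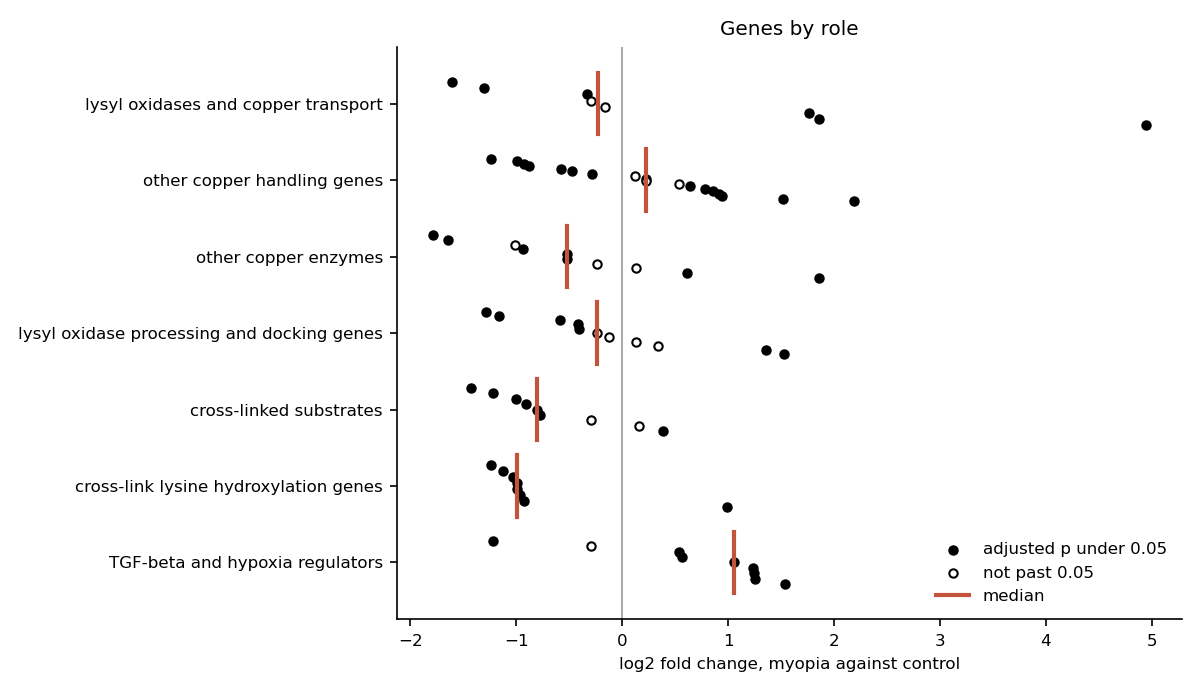
Log2 fold change of every tested gene of the lysyl oxidase and copper group and of the 6 lists of related genes, 1 point per gene, filled where the adjusted p was under 0.05, with the list's median in red. The genes listed with lysine hydroxylation cluster near their median of -0.997 with PLOD2 alone on the right. The regulators lie mostly to the right, and the copper lists spread to both sides.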

How the data were processed

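RNA-seq libraries were made from 1.3 ug of total RNA of guinea pig sclera, with a SMARTer mRNA kit per the labels' protocols. The deposited values are unnormalized read counts for each gene symbol. Not given in the sources used here: alignment and counting software, gene annotation, use of strand. Overlapping and antisense genes may therefore share reads. The submitters' processing notes name the mouse builds GRCm38 and mm10. No gene length, coordinate or sequence is therefore given. Symbols have mixed case in the table and the 8 genes are written in capitals. Of 18079 lines, 437 without a symbol were left out (1.18% to 1.69% of counts in control, 0.751% to 0.824% in myopia).

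The test was the quasi-likelihood test of edgeR 4.0.16, run under R 4.3.3 (filterByExpr with minimum count 10 and minimum total 15, TMM factors, glmQLFit with robust dispersion, 1 factor for group, Benjamini-Hochberg over 14683 genes, threshold 0.05). CPM is TMM-scaled. SEs were derived from the log2 fold change and its quasi-likelihood F statistic. SDs of log2 CPM use a prior count of 2. No pair of replicates agreed within sampling noise (chi-square over its degrees of freedom, 16.7 to 108). Alternatives were other scalings and filters, DESeq2 1.42.0, limma-voom (limma 3.58.1), a replicate block, summed lines and left-out libraries. On data simulated for 14573 genes, the test recovered 77.8% of 2-fold and 92.6% of 4-fold changed genes and called 6 unchanged ones. Only 200 genes were changed there, raised and lowered in equal number, whereas 71.9% of genes tested were called in the real data. The simulation therefore does not cover so broad a difference or the choice of scaling.

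The 8 genes and the lists were chosen with earlier results of these data known. The rule for naming genes took the 8, a set of 23 genes from the lists in any case of outcome, and the 3 most like LOX and LOXL1.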

Additional observations from a re-analysis of the deposited data

Results flagged for a closer look

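Over 60 combinations of a gene and a group, 1 library stood apart from the other 4 of its group in 5 cases by Dixon's criterion, where chance gives about 1 in 20. LOXL3 was lowest in control 5, at 47.7 CPM against 57.0 to 59.8 CPM in the other control libraries. LOXL4 was highest in control 1, at 21.1 CPM against 15.4 to 17.0 CPM. PLOD2 was highest in control 5, at 8.96 CPM against 4.46 to 5.09 CPM. In the myopia group ELN was highest in myopia 5, at 604 CPM against 459 to 501 CPM, and POSTN in myopia 2, at 610 CPM against 312 to 381 CPM.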

How the results depend on the processing

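LOX, LOXL1, ATP7A, ATOX1 and SLC31A1 kept their direction and their side of the threshold in all 22 alternatives each. With scaling by total count LOXL2 became 0.11, LOXL3 0.29 and LOXL4 0.15, and 2752 genes were lower against 5149. The median log2 fold change of all genes was 0.47 with that scaling and 0.03 with TMM factors, which level the typical gene-wise ratio by construction. Which scale is the truer here was not tested. LOXL3 passed with limma-voom and quality weights (-0.19), and LOXL4 with RLE factors (-0.32), DESeq2 (-0.32) and quality weights (-0.29). With quality weights 5 of the 8 genes were then lower. The cause of these changes was not tested. When single libraries were left out, LOX ranged from 1.61 to 2.09, LOXL1 from -1.34 to -1.27, LOXL2 from -0.42 to -0.28, LOXL3 from -0.22 to -0.13, LOXL4 from -0.37 to -0.20, ATP7A from 4.66 to 5.97, ATOX1 from -1.68 to -1.54 and SLC31A1 from 1.71 to 2.11. Members past the threshold ranged from 6 to 7, of them 3 to 4 lower, and all genes from 10133 to 10854. Both groups carry the numbers 1 to 5, but deviations of same-numbered libraries correlated at -0.13 to 0.01, and no library matched best with its own number. With the replicate block 6 members passed, LOX at 1.92 and ATP7A at 5.24. The summed lysyl oxidase level had a log2 ratio of -0.25 with total count, against -0.69. Depth limits ATP7A in control, where 1 read was the lowest count.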
